A study of Mus musculus with 10 samples.

Results

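Potassium channel genes were compared between mouse neuroblastomas that carried mutant ALK together with MYCN and neuroblastomas that carried MYCN alone. The genes were taken by name: every gene whose symbol on the array begins with Kcn, which gave 95 genes with 138 probes among 36161 named genes. One probe stood for each gene, the one with the highest mean intensity over the 10 arrays. Of the 95 genes, 64 were tested, because their probe gave a tumour signal well above background on 5 or more arrays. Of the 31 that were not tested, 19 had this probe above background on no array and 12 on 1 to 4 arrays. For 2 of the 19, Kcnf1 and Kcnh6, a dimmer probe was above background on 1 MYCN array and on 2 ALK/MYCN arrays.

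The 5 ALK/MYCN tumours came from mice labelled ALK+/-, MYCN+/- transgenic, with the ALK F1174L mutation, on a C57BL/6 x 129X1/SvJ background. The 5 MYCN tumours came from mice labelled MYCN+/- transgenic on a 129X1/SvJ background. MYCN was thus shared by both groups, all tumours were untreated, and each was a biological replicate. The mutation and the strain background cannot be told apart. The promoters that drive the transgenes and the ages of the mice are not given in the sources used here. Tumour RNA labelled with the dye Cy3 was hybridised with a Cy5-labelled Universal Mouse Reference RNA, a pool from 11 murine cell lines. Values are log2 ratios of tumour over that reference, and differences are ALK/MYCN minus MYCN on this log2 scale with their standard error (SE). A gene was called when its adjusted p fell under 0.05 in limma, a linear model fitted over all 22208 genes tested, with Benjamini-Hochberg adjustment over all of them. In whole tumours, fewer cells of a type and less RNA per cell cannot be told apart.

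Potassium channels let potassium ions leave or enter a cell and thereby set its resting potential and the shape and rate of its action potentials. Pore-forming subunits fall into voltage-gated, calcium- or sodium-activated, inward rectifier and two-pore families, and auxiliary subunits alter how the pores open, close and reach the membrane. Neuroblastoma arises from sympathetic precursors, and sympathetic neurons use A-type, M-type and calcium-activated potassium currents to limit their firing.

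All 12 sympathetic neuroblast markers examined were measured in the tumours, among them the noradrenaline-synthesis gene Dbh at a mean of 3.32 in ALK/MYCN and 3.13 in MYCN tumours. The Mycn probe of the array was higher in ALK/MYCN tumours by 2.85 ± 0.35, and the Alk probe differed by 0.065 ± 0.197 (limma adjusted p = 0.837); the labels do not say which species' sequence the transgenes carry. On each array 53.8% to 58.7% of spots stood well above background in Cy3, and the number of arrays limits the precision. In 4 tumours, markers of other tissues stood apart. The mean of 3 adrenal cortex genes, relative to each gene's average over the tumours, was 4.12 in ALK/MYCN 3 and at most -0.25 in the other tumours. The mean of 7 skeletal muscle genes was 4.43 in MYCN 2 and 2.18 in MYCN 1. In MYCN 5, 11 of 12 kidney tubule genes had their highest value. Without ALK/MYCN 3, MYCN 2 and MYCN 5, 17 of the 21 potassium channel genes called over all tumours were still called, 12 higher and 5 lower. Kcna2, Kcne1l and Kcnj4 were among those not called without them, with limma adjusted p of 0.161, 0.0892 and 0.158. Among all 64 genes tested, that fit called 12 higher (18.8%, against 9.69% of all genes) and 6 lower (9.38%, against 6.95%). MYCN 1, with the lower of both high muscle means, stayed in that fit. Without MYCN 1 alone, 13 genes were called higher (20.3%, against 12.0% of all genes) and 5 lower (7.81%, against 11.7%). The largest rises without the other 3 were 2.67 for Kcnma1 and 2.48 for Kcnd3.

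Of the 64 potassium channel genes tested, 21 were called, or 32.8%, against 26.6% of all genes tested. Higher in ALK/MYCN tumours were 14 genes (21.9%, against 14.3% of all genes) and lower were 7 (10.9%, against 12.3%). The median difference was 0.07 for the potassium channel genes and -0.004 for all genes tested, and single genes ranged from -1.38 to 2.24. Differences beyond 1 on the log2 scale that were also called made up 10.9% of the potassium channel genes in the higher direction, against 2.25% of all genes, and 6.25% in the lower direction, against 2.18%. These were the higher genes Kcnd3, Kcnma1, Kcnd2, Kcnk10, Kcnmb2, Kcnn2 and Kcnmb4 and the lower genes Kcne3, Kcnj12, Kcnk6 and Kcnj8. The ranges of the 5 and 5 tumours did not overlap for 14 genes, or 21.9%, against 20.0% of all genes tested. Of these, 12 were higher (18.8% of those tested, against 11.4% of all genes) and 2 lower (3.12%, against 8.62%). Of the genes called higher, Kcnq3 and Kcnip4 passed the filter through the ALK/MYCN arrays alone, and Kcnq3 is also among the 12. For both, the distance between the groups follows in part from the filter. How many of all genes passed in this way was not counted. The excess of higher calls was absent under 3 alternatives that treat dim signals otherwise. With plain background subtraction 9.84% of the potassium channel genes were called higher, and 2368 of all 22191 genes, a slightly larger share. Over probes above background on all arrays the share was 15.6%, against 15.4% of all genes, and over probes above background in both channels 6.25%, against 14.6%. Each of the 3 slides held tumours of both groups, but unevenly. They held ALK/MYCN 2 with MYCN 1, ALK/MYCN 1, 3 and 4 with MYCN 4, and ALK/MYCN 5 with MYCN 2, 3 and 5. A difference within a slide thus rested on 1 tumour of at least 1 group, and slide and genotype were partly confounded. The 7 called genes whose groups overlapped had 1 sign on all slides, as did 94.0% of such genes over the whole array. Centring each array on its spike-in spots moved the median of all genes by 0.25. That centring gave 28 higher potassium channel genes (43.8%, against 40.1% of all genes) and 4 lower (6.25%, against 3.77%), with a median of 0.33. None of the 21 called genes changed its sign under the alternatives that gave it a value, which were 26 to 29 of the 29 run.

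**Figure D1:**
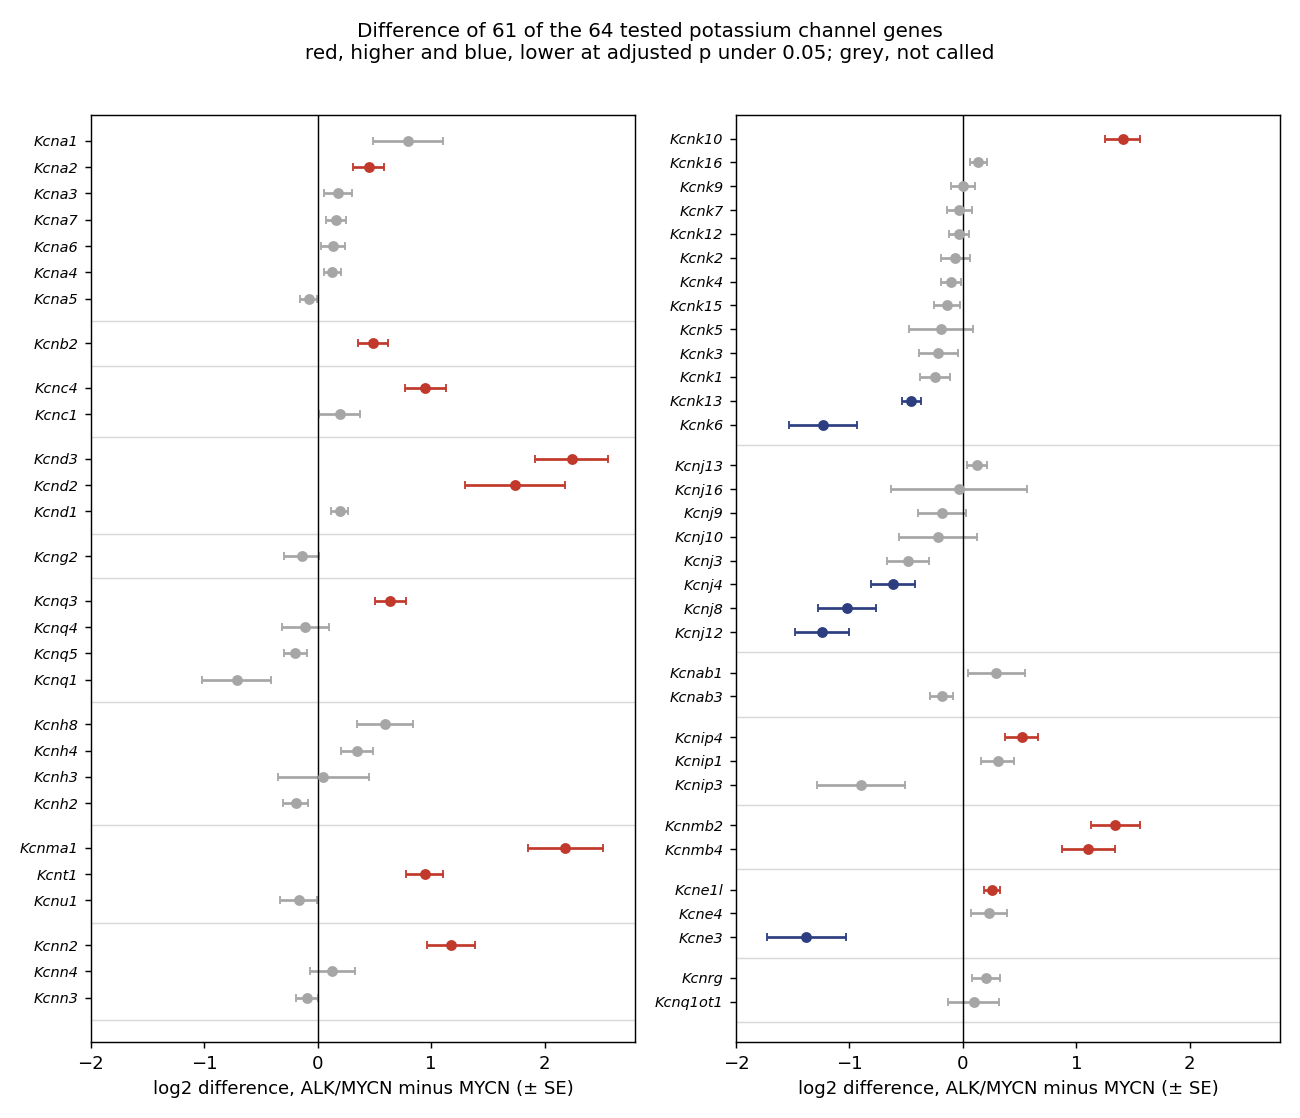
Log2 difference, ALK/MYCN minus MYCN tumours, with its SE for 61 of the 64 tested potassium channel genes, grouped by subfamily (n = 5 tumours per group). Red points are the 14 genes called higher and blue points 6 of the 7 called lower in limma, grey points were not called; Kcnd3 lies furthest to the right at 2.24 and Kcne3 furthest to the left at -1.38.

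The families are small, differences between them were not tested, and their counts stand against 14.3% higher and 12.3% lower over all genes. Of the calcium-, sodium- or pH-activated channels with their BK beta subunits, 5 of 8 tested were higher and 0 were lower. The 8 include the pH-activated Kcnu1, which was not called. Of the Kv4 pore genes, 2 of 3 were higher. Of the inward rectifiers, 3 of 8 tested were lower and 0 higher. Of the two-pore channels, 1 of 13 was higher and 2 were lower. Among the EAG, ERG and ELK channels, 0 of 4 tested were called. Of 10 silent Kv subunits, which modify other pores and carry no current alone, 7 had the chosen probe above background on no array and 1 was tested, without a call. Taken by role, 10 of 52 tested pore-forming genes were higher (19.2%) and 6 lower (11.5%), and 4 of 10 tested auxiliary subunits were higher and 1 lower.

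The A-type channels gave the largest rise. Kcnd3 and Kcnd2 encode pores of the Kv4 family, which open below the firing threshold and inactivate within milliseconds. Kcnd3 had log2 ratios of 4.85, 4.07, 3.22, 3.31 and 3.93 in the ALK/MYCN tumours, against 1.26, 1.52, 2.23, 1.20 and 1.99 in the MYCN tumours. Every ALK/MYCN tumour lay above every MYCN tumour. The difference was 2.24 ± 0.32 (limma adjusted p = 0.00137), and it kept its call under every alternative that gave a value, between 2.00 and 2.63. The other Kcnd3 probe of the array was too dim to be kept. In neither group did its tumour signal clear the background, and its log2 ratios averaged 0.05 in ALK/MYCN and 0.03 in MYCN tumours. The rise of Kcnd3 thus rests on a single probe. The Kcnd3 probe used lies on the plus strand of mm9 at chr3:105476854-105476913, and is shown as the sequence behind the largest rise of the set.
Kcnd3 probe: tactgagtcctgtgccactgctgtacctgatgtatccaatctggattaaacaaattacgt

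Kcnd2 had log2 ratios of 2.12, 1.85, 2.15, 3.27 and 3.14 in the ALK/MYCN tumours, against -0.19, 0.54, 1.08, 0.28 and 2.12 in the MYCN tumours. MYCN 5 reached the level of the lower ALK/MYCN tumours, so the groups overlapped at that tumour, and the probe was above background in only 3 of the 5 MYCN tumours. The difference was 1.74 ± 0.44 (limma adjusted p = 0.0169). With the scanner's own processed signals it was 2.87 with an adjusted p of 0.0533, within a range of 0.00481 to 0.138 over the alternatives. The third Kv4 pore gene, Kcnd1, differed by 0.19 ± 0.07 and did not pass (limma adjusted p = 0.0761).

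Among the Kv4 auxiliary subunits, the KChIP genes, which bind calcium and bring the pores to the surface, gave a single call. Kcnip4 averaged 0.60 ± 0.23 in ALK/MYCN and 0.08 ± 0.26 in MYCN tumours (n = 5 each, ± SD), a difference of 0.52 ± 0.15 (limma adjusted p = 0.0277). Its probe was well above background on no MYCN array and passed the filter through the ALK/MYCN arrays alone, so the rise is a bound, at least 1.34-fold from the Cy3 signals. The call was lost on leaving out any one of 6 tumours, with adjusted p between 0.00816 and 0.0604 over the 10 such fits. Kcnip1 and Kcnip3 did not pass, at 0.31 ± 0.14 and -0.90 ± 0.39.

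The calcium-activated BK channel and its partners were the next group. Kcnma1 encodes the BK pore, which opens on depolarisation and on calcium entry and ends action potentials. It had log2 ratios of 5.34, 5.13, 4.52, 4.32 and 5.75 in the ALK/MYCN tumours, against 2.18, 3.23, 2.93, 2.30 and 3.51 in the MYCN tumours, with no overlap. The difference was 2.18 ± 0.33 (limma adjusted p = 0.00181). Kcnma1 had 3 kept probes on the minus strand of mm9 chromosome 14, at chr14:24118701-24118760, chr14:24126279-24126338 and chr14:24130916-24130975, and they are shown because each measured the rise separately. On the brightest, used here, the difference was 2.18 ± 0.33, on the next 0.97 ± 0.17, and on the dimmest 1.48 ± 0.26, and each was called in the limma fit over all kept probes (adjusted p = 0.00167, 0.00359 and 0.00379). The probes differ in the size of the rise and share its direction.
Kcnma1 brightest probe: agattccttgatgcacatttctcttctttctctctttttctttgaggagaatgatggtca
Kcnma1 next probe: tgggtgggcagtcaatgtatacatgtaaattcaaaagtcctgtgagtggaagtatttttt
Kcnma1 dimmest probe: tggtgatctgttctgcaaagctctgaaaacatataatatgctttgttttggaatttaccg

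Kcnmb2 and Kcnmb4 encode BK beta subunits, which change the calcium sensitivity and the inactivation of the pore. Kcnmb2 had log2 ratios of 2.33, 1.88, 1.97, 2.52 and 2.52 in the ALK/MYCN tumours, against 0.43, 0.52, 1.49, 1.07 and 0.98 in the MYCN tumours. Its difference was 1.35 ± 0.21 (limma adjusted p = 0.00222), and the groups did not overlap. A dimmer Kcnmb2 probe, well above background on no MYCN array, passed the filter through the ALK/MYCN arrays alone and gave 0.92 ± 0.12. Kcnmb4 had log2 ratios of 0.80, 1.34, 1.07, 1.92 and 1.68 in the ALK/MYCN tumours, against 0.66, 0.03, 0.47, -0.24 and 0.34 in the MYCN tumours, again without overlap. Its difference was 1.11 ± 0.23 (limma adjusted p = 0.00793), against 0.44 ± 0.14 on its other probe (adjusted p = 0.0495). The smooth muscle beta subunit gene Kcnmb1 was not tested. Lrrc55, which encodes a BK gamma subunit, averaged 1.07 ± 0.33 in ALK/MYCN and 0.14 ± 0.18 in MYCN tumours (n = 5 each, ± SD). Its probe was well above background on no MYCN array and passed the filter through the ALK/MYCN arrays alone. The distance between the groups thus follows in part from the filter. The log2 ratios of Lrrc55 differed by 0.93 ± 0.16 (limma adjusted p = 0.00292). From the Cy3 signals scaled between arrays the rise was at least 1.93-fold, about the size that the log2 ratios give. Of the related genes in the partner list, Lrrc38 did not pass, at 0.01 ± 0.09 (limma adjusted p = 0.945). Lrrc26 and Lrrc52 were not tested.

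Kcnn2 encodes a small-conductance channel opened by calcium alone, which carries an after-hyperpolarisation. It had log2 ratios of 3.33, 2.78, 4.05, 3.20 and 3.25 in the ALK/MYCN tumours, against 2.24, 2.12, 2.24, 1.75 and 2.38 in the MYCN tumours. No MYCN tumour reached the lowest ALK/MYCN tumour, and the difference was 1.18 ± 0.21 (limma adjusted p = 0.00379). The related Kcnn3 and the intermediate-conductance Kcnn4 did not pass, with differences of -0.10 ± 0.10 and 0.13 ± 0.20, and Kcnn1 was above background on no array. Kcnt1, a channel opened by intracellular sodium, averaged 1.90 ± 0.13 in ALK/MYCN and 0.96 ± 0.38 in MYCN tumours (n = 5 each, ± SD). The groups did not overlap for Kcnt1, and its difference was 0.94 ± 0.17 (limma adjusted p = 0.00349). Plain subtraction of the background ended the calls of Kcnn2 (0.84, adjusted p = 0.0783) and Kcnt1 (1.24, adjusted p = 0.159), out of ranges of 0.000963 to 0.0783 and 0.000496 to 0.159 over the alternatives.

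Kcnk10, which encodes a two-pore leak channel of the TREK type that responds to stretch and lipids, was higher in every ALK/MYCN tumour than in any MYCN tumour. It had log2 ratios of 3.30, 3.40, 3.02, 3.23 and 3.16 in the ALK/MYCN tumours, against 1.61, 1.49, 2.25, 1.61 and 2.12 in the MYCN tumours. The lowest ALK/MYCN tumour lay well above the highest MYCN tumour, and the difference was 1.41 ± 0.16 (limma adjusted p = 0.000511). It was 2.13 from the tumour channel alone and 0.91 from the scanner's processed signals, and was called in both. Its probe, shown because this gene had the smallest adjusted p of the set, lies on the minus strand of mm9 at chr12:99672268-99672327.
Kcnk10 probe: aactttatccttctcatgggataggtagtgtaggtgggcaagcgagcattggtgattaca

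Kcnc4, a gene of the Kv3 family of fast channels that open at high voltage, had log2 ratios of 1.71, 1.22, 1.00, 1.40 and 1.30 in the ALK/MYCN tumours, against 0.12, 0.93, 0.46, 0.04 and 0.34 in the MYCN tumours. The groups did not overlap, with MYCN 2 closest to the ALK/MYCN range. The difference was 0.95 ± 0.18 (limma adjusted p = 0.00502), and Kcnc1 of the same family did not pass at 0.19 ± 0.18. Kcnb2, a Kv2 pore of the slow delayed rectifier current, averaged 0.73 ± 0.10 in ALK/MYCN and 0.24 ± 0.29 in MYCN tumours (n = 5 each, ± SD), a rise of 0.49 ± 0.13 (limma adjusted p = 0.0216). Its probe was above background in only 2 of the 5 MYCN tumours. The Kcnb2 call was lost with plain background subtraction (1.31, adjusted p = 0.0912) and with replicate number as a block (adjusted p = 0.0557), out of 0.00417 to 0.0912 over the alternatives, and its difference was 1.72 with the scanner's processed signals. Kcna2, a Kv1 pore of axons, averaged 0.99 ± 0.30 in ALK/MYCN and 0.54 ± 0.12 in MYCN tumours (n = 5 each, ± SD). Its difference was 0.45 ± 0.14 (limma adjusted p = 0.0347), and the call was lost on leaving out any one of 6 tumours (highest adjusted p 0.0716). The Kcna2 probe, too, was above background in only 2 of the 5 MYCN tumours. Kcne1l, a MinK-related auxiliary gene, differed by 0.25 ± 0.07 (limma adjusted p = 0.0231) with no overlap, but by 0.05 on its probe of highest tumour signal (adjusted p = 0.867); the range over the alternatives was 0.00232 to 0.867.

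**Figure D2:**
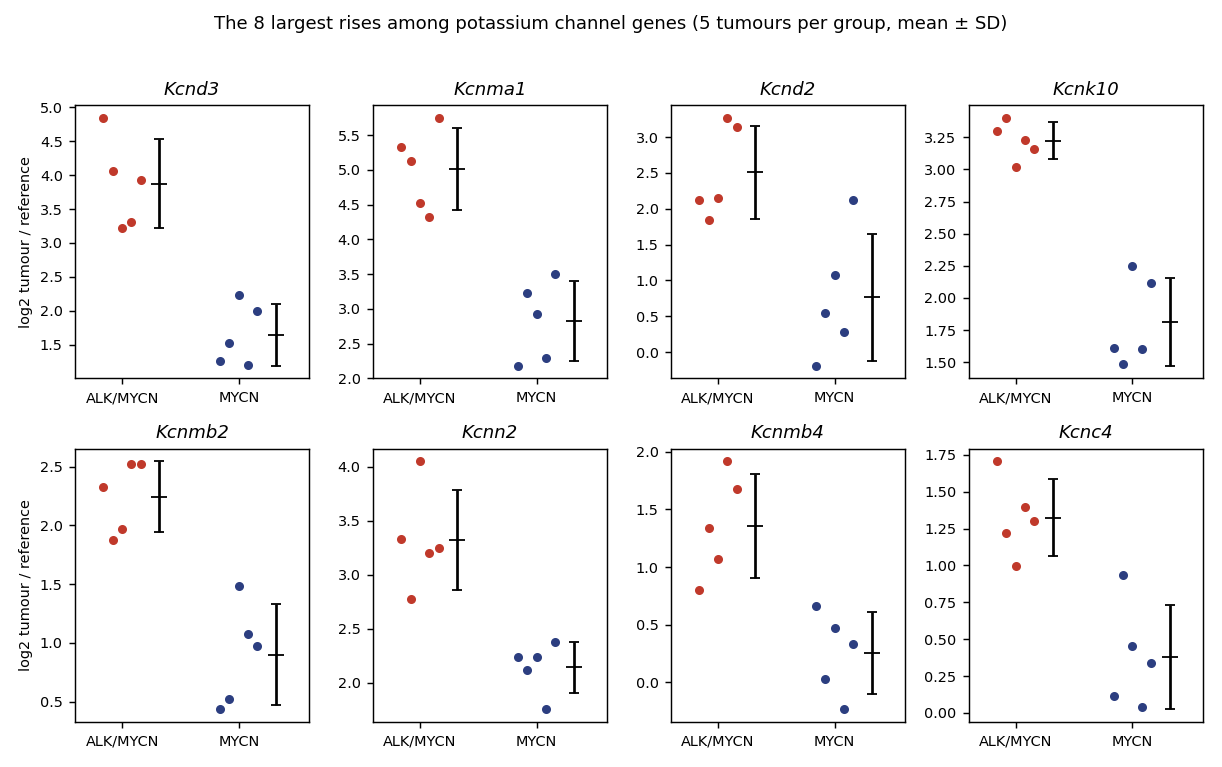
Log2 ratio of tumour over reference in each ALK/MYCN tumour (red, left) and MYCN tumour (blue, right) for the 8 genes with the largest rise, with group mean ± SD (n = 5 each). The groups do not overlap except for Kcnd2, where MYCN 5 at 2.12 lies among the ALK/MYCN tumours; each panel has its own vertical axis.

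The M channel, a slow current that muscarinic receptors shut off in sympathetic neurons, is built from subunits of the Kv7 family, among them Kcnq3 and, in some neurons, Kcnq5. Kcnq3 had log2 ratios of 0.72, 0.41, 0.50, 1.04 and 1.02 in the ALK/MYCN tumours, against -0.09, 0.00, 0.33, 0.19 and 0.06 in the MYCN tumours. The Kcnq3 probe was well above background on no MYCN array and passed the filter through the ALK/MYCN arrays alone, so the MYCN values are a bound and their distance from the ALK/MYCN values follows in part from the filter. The rise was at least 1.44-fold from the Cy3 signals, and the fitted difference was 0.64 ± 0.14 (limma adjusted p = 0.0094). With plain background subtraction it was not called (2.20, adjusted p = 0.0594, from 0.00121 over the alternatives). Kcnq3 and Kcnip4 were the 2 of the 14 higher genes that passed in this way. Kcnq5 did not pass, at 1.08 ± 0.22 in ALK/MYCN and 1.28 ± 0.04 in MYCN tumours (n = 5 each, ± SD; difference -0.20 ± 0.10, limma adjusted p = 0.178).

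Kcna6, a Kv1 pore gene chosen for mention after its values were seen, had probes that differed. The probe used differed by 0.13 ± 0.11 (limma adjusted p = 0.394). A dimmer probe, above background in 4 of the 5 MYCN tumours, had log2 ratios of 4.07, 3.46, 3.66, 3.48 and 3.81 in the ALK/MYCN tumours, against -0.14, 1.79, 2.90, 1.62 and 3.07 in the MYCN tumours. All ALK/MYCN tumours lay above all MYCN tumours on that probe, with a wide spread in MYCN, and the difference was 1.84 ± 0.52 (limma adjusted p = 0.0274 over all kept probes). The probes lie on the minus strand of mm9 at chr6:126686702-126686761, the one used, and at chr6:126658424-126658483, 28278 bases further along in the direction of transcription. Where these positions lie in the gene's exons was not analysed here.
Kcna6 probe used: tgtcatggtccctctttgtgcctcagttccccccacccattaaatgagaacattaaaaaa
Kcna6 second probe: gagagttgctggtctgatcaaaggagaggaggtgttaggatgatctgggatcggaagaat

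**Figure D3:**
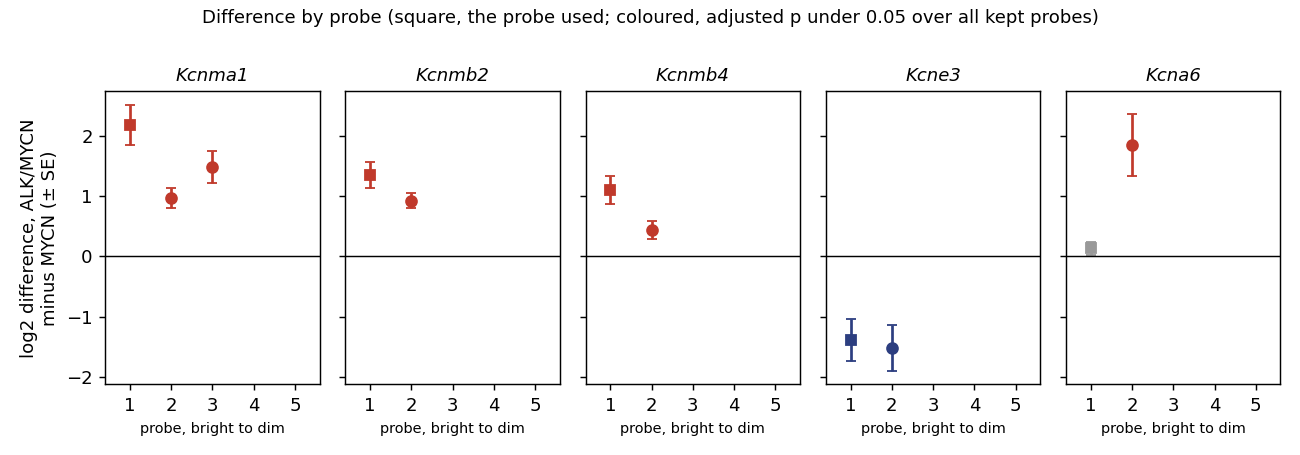
Log2 difference, ALK/MYCN minus MYCN, with its SE for every kept probe of 5 genes, ordered from the brightest to the dimmest (square, the probe used; coloured, limma adjusted p under 0.05 over all kept probes). The 3 Kcnma1 probes lie between 0.97 and 2.18, whereas for Kcna6 the probe used is near 0 and another probe is called, at 1.84.

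The ERG channel genes, whose current helps set the resting potential of neuroblastoma cells in culture, gave no call. Kcnh2 averaged 0.14 ± 0.16 in ALK/MYCN and 0.34 ± 0.19 in MYCN tumours (n = 5 each, ± SD), a difference of -0.19 ± 0.11 (limma adjusted p = 0.222). The chosen probes of Kcnh6 and Kcnh7 were above background on no array. The antisense transcript Kcnq1ot1, an imprinted noncoding RNA of the Kcnq1 locus, averaged 0.95 ± 0.25 in ALK/MYCN and 0.85 ± 0.50 in MYCN tumours (n = 5 each, ± SD) and did not pass (difference 0.09 ± 0.23, limma adjusted p = 0.791).

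Among the genes that fell, inward rectifiers were the most numerous. These channels pass potassium more readily into the cell than out of it and hold the membrane near the potassium potential. Kcnj12, a strong rectifier, had log2 ratios of 1.92, 1.52, 1.63, 1.34 and 2.04 in the ALK/MYCN tumours, against 2.31, 2.58, 3.04, 3.65 and 3.07 in the MYCN tumours. The groups did not overlap, and the difference was -1.24 ± 0.24 (limma adjusted p = 0.00522). With the scanner's processed signals it was -0.93 (adjusted p = 0.13, out of 0.00303 to 0.13 over the alternatives). Kcnj4, another strong rectifier, had log2 ratios of -1.44, -1.77, -2.11, -1.97 and -2.16 in the ALK/MYCN tumours, against -1.30, -0.65, -1.36, -1.62 and -1.42 in the MYCN tumours. The groups overlapped, and the difference of -0.62 ± 0.19 (limma adjusted p = 0.0398) was not called on leaving out any one of 8 tumours, with adjusted p up to 0.0932.

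Kcnj8 encodes the pore of an ATP-sensitive potassium channel of blood vessel walls, and Abcc9 its sulphonylurea receptor partner. Kcnj8 had log2 ratios of -0.02, 0.20, 0.69, 0.02 and 0.30 in the ALK/MYCN tumours, against 0.66, 1.10, 2.17, 1.32 and 1.03 in the MYCN tumours. ALK/MYCN 3 lay just above the lowest MYCN tumour, and the difference was -1.02 ± 0.26 (limma adjusted p = 0.0162). Abcc9 averaged 1.69 ± 0.47 in ALK/MYCN and 2.92 ± 0.58 in MYCN tumours (n = 5 each, ± SD), a difference of -1.22 ± 0.30. Its groups nearly touched, with ALK/MYCN 3 at 2.135 and MYCN 1 at 2.137. The Abcc9 call was lost with slide as a block (-1.15, adjusted p = 0.0578), with plain background subtraction (adjusted p = 0.0704) and with the scanner's processed signals (adjusted p = 0.0611), out of 0.00828 to 0.0704 over the alternatives. Pericyte and smooth muscle markers moved with these genes: 6 of the 10 tested were lower and 0 higher, against 12.3% and 14.3% of all genes. Their mean, relative to each gene's average over the tumours, lay between -1.07 and -0.14 in ALK/MYCN and between -0.05 and 1.19 in MYCN tumours. Among them Notch3 averaged -1.29 in ALK/MYCN and 0.39 in MYCN tumours, and Rgs5 averaged 3.51 in ALK/MYCN and 4.25 in MYCN tumours. Endothelial markers were lower in 7 of 10 and higher in 0, with means between -0.79 and 0.01 in ALK/MYCN and between -0.07 and 1.06 in MYCN tumours. The part of vessel cells in the falls of Kcnj8 and Abcc9 was not tested. With slide as a block, Kcnj8 was at -0.95 with an adjusted p of 0.0526, its highest over the alternatives, from 0.0103.

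The two-pore genes Kcnk6 and Kcnk13 and the auxiliary gene Kcne3 also fell. Kcnk6, a weakly conducting leak channel, had log2 ratios of -2.09, -1.92, -1.15, -1.76 and -1.71 in the ALK/MYCN tumours, against -1.26, -0.14, -0.07, 0.16 and -1.16 in the MYCN tumours. MYCN 1 and MYCN 5 lay just below the highest ALK/MYCN tumour, so that the groups overlapped, and the other 3 MYCN tumours were well above it. The difference was -1.23 ± 0.30 (limma adjusted p = 0.0151), and Kcnk6 was the one fallen gene that kept its call under every alternative, between -1.66 and -0.98. For that reason its probe is shown, from the minus strand of mm9 at chr7:30007215-30007274.
Kcnk6 probe: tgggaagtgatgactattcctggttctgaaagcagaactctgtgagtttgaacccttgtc

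Kcnk13, a leak channel that microglia use in brain, had log2 ratios of -1.12, -1.06, -1.17, -1.31 and -1.16 in the ALK/MYCN tumours, against -0.83, -0.76, -0.52, -0.58 and -0.86 in the MYCN tumours. The groups did not overlap, and the difference was -0.46 ± 0.09 (limma adjusted p = 0.0045), or -0.20 with arrays centred on the spike-in spots (adjusted p = 0.0952, from 0.00271 over the alternatives). Of 9 tested macrophage markers, 6 were lower and 0 higher, against 12.3% and 14.3% of all genes. The mean of these markers lay between -0.74 and -0.15 in ALK/MYCN and between -0.36 and 0.94 in MYCN tumours. The part of macrophages in the fall of Kcnk13 and of Kcnk6 was not tested. Kcne3, a MinK-related subunit that in epithelia keeps the Kcnq1 pore open, had log2 ratios of 1.54, 2.00, 1.08, 0.54 and 1.80 in the ALK/MYCN tumours, against 2.68, 1.98, 3.71, 2.99 and 2.50 in the MYCN tumours. MYCN 2 lay among the ALK/MYCN tumours, and the difference was -1.38 ± 0.35 (limma adjusted p = 0.017), with -1.52 ± 0.38 on a second probe. From the scanner's processed signals it was -0.54 (adjusted p = 0.363), and the lowest adjusted p over the alternatives was 0.0119. Its partner Kcnq1 did not pass, at 0.53 ± 0.32 in ALK/MYCN and 1.24 ± 0.69 in MYCN tumours (n = 5 each, ± SD; difference -0.71 ± 0.30, limma adjusted p = 0.11).

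In place of 7, lower genes numbered 3 from the scanner's processed signals (4.69%, against 9.24% of all genes) and 4 with slide as a block (6.25%, against 8.48%).

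**Figure D4:**
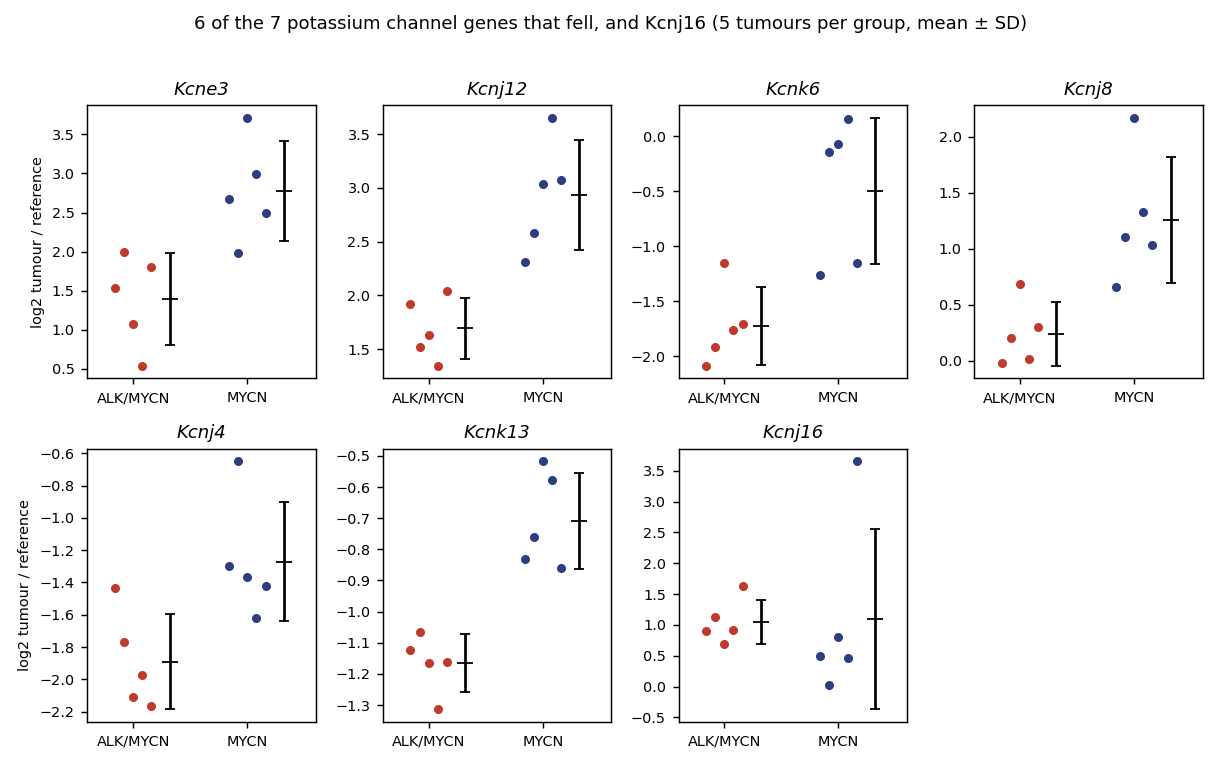
Log2 ratio of tumour over reference in each ALK/MYCN tumour (red, left) and MYCN tumour (blue, right) for 6 of the 7 genes that fell and for Kcnj16, with group mean ± SD (n = 5 each); each panel has its own vertical axis. Kcnj12 and Kcnk13 do not overlap between the groups, and Kcnj16 has 1 MYCN tumour, MYCN 5, at 3.66 with the others between 0.03 and 0.80.

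A few inward rectifiers were high in a single tumour. Kcnj15 was above background on no ALK/MYCN array and on 4 MYCN arrays, and so was not tested. Its log2 ratios were -0.08, -0.19, 0.06, -0.28 and -0.12 in the ALK/MYCN tumours, against 0.03, 0.61, 0.43, 0.81 and 3.53 in the MYCN tumours, where the value of MYCN 5 stood far above the others. The mean log2 ratios differed by -1.21, and from the Cy3 signals scaled between arrays the ALK/MYCN level was at least 2.51-fold lower, or at least 1.52-fold lower without MYCN 5. Kcnj16 and Kcnj1, chosen for mention after their values were seen, were likewise highest in MYCN 5, at 3.66 and 3.51. All 3 encode channels of kidney tubule cells. The kidney tubule markers Cdh16 and Umod were at 5.30 and 3.62 in MYCN 5, against at most -0.10 and 0.34 in the other tumours. Of the 12 genes of that list, 11 were highest in MYCN 5, but Pvalb was highest in MYCN 2, at 2.68. Kap was at 8.18 in MYCN 5 and also at 2.90 in MYCN 3 and 3.00 in MYCN 4. The part of kidney cells in these values was not tested. Kcnj16 averaged 1.05 ± 0.36 in ALK/MYCN and 1.09 ± 1.46 in MYCN tumours (n = 5 each, ± SD), a difference of -0.04 ± 0.60.

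The genes that partner these channels were examined by lists. Of 21 auxiliary and clustering partners, 17 were tested, 11 were higher and 1, Abcc9, lower. Over all genes tested, 14.3% were higher and 12.3% lower. The median difference of the partners was 0.55, against -0.004 for all genes. The 11 include Lrrc55, which passed the filter through the ALK/MYCN arrays alone. Dpp6, a membrane peptidase relative that binds Kv4 pores and speeds their gating, averaged 3.88 ± 0.29 in ALK/MYCN and 2.79 ± 0.35 in MYCN tumours (n = 5 each, ± SD). Its groups did not overlap, and its difference of 1.09 ± 0.19 (limma adjusted p = 0.00295) was called under every alternative. Amigo1, a partner of Kv2 pores, rose by 0.67 ± 0.12. Cntnap2, which holds Kv1 channels beside the nodes of myelinated axons, rose by 0.99 ± 0.17, and its paranodal relative Cntnap1 by 0.59 ± 0.09. The difference of Cntnap2 was -0.43 with plain background subtraction (adjusted p = 0.834, from 0.000502 over the alternatives). The secreted LGI proteins and their ADAM receptors tie Kv1 channels and synaptic proteins together. Lgi4 rose by 1.98 ± 0.43, Lgi1 by 0.98 ± 0.22 and Lgi3 by 0.60 ± 0.17. Lgi2 did not pass, at 0.02 ± 0.20 (limma adjusted p = 0.955). Among the receptors, Adam23 rose by 0.55 ± 0.12 and Adam22 by 0.46 ± 0.14. The scaffold gene Dlg4 rose by 0.25 ± 0.08, a call that was lost under 18 of the 29 alternatives, among them 9 of the 10 fits that left out 1 tumour (adjusted p from 0.0054 to 0.174 over the alternatives). The Adam22 call was lost under 12 of 28 (0.00558 to 0.5) and the Lgi3 call under 5 of 29 (0.00156 to 0.112). The Lgi1 probe was above background on only 1 of the 5 MYCN arrays, and its call was also lost with plain background subtraction (2.85, adjusted p = 0.391, from 0.00138). Of these, Lgi1, Lgi3, Adam22, Adam23 and Dlg4 were not called without the 3 tumours that stood apart.

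Markers of Schwann cells and glia, which secrete Lgi4 in peripheral nerve, moved with these partners. Of 7 tested, 4 were higher and 0 lower, against 14.3% and 12.3% of all genes. The mean of the 7 lay between 0.18 and 0.91 in ALK/MYCN and between -0.79 and -0.08 in MYCN tumours. Foxd3 averaged 1.92 in ALK/MYCN and 0.26 in MYCN tumours, and Sox10 averaged 2.23 in ALK/MYCN and 1.07 in MYCN tumours, while the myelin genes Mbp and Pmp22 did not pass. The part of these cells in the rises of the channel and partner genes was not tested. Of the sympathetic neuroblast markers, 4 of 12 were higher and 0 lower, with overlapping means, from -0.05 to 0.16 in ALK/MYCN and from -0.28 to 0.10 in MYCN tumours.

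Genes that keep the potassium gradient were examined next. The sodium pump exchanges sodium for potassium at the membrane. Of its 11 tested genes, 4 were higher and 0 lower, against 14.3% and 12.3% of all genes, with a median difference of -0.02. The beta subunit Atp1b1 had log2 ratios of 3.06, 2.84, 2.46, 2.69 and 3.18 in the ALK/MYCN tumours, against 0.33, 1.57, 0.41, 0.32 and 1.69 in the MYCN tumours. No tumours overlapped, and the difference was 1.98 ± 0.30. The regulatory Fxyd7 rose by 1.21 ± 0.28 and the beta subunit Atp1b2 by 0.63 ± 0.18. The Fxyd7 call was lost under 3 of 28 alternatives (adjusted p from 0.00153 to 0.067) and the Atp1b2 call under 7 of 29 (0.00161 to 0.112), 5 of them fits without 1 tumour. Of the potassium-chloride cotransport genes, 1 of 5 tested was higher, the neuronal chloride extruder Slc12a5, by 0.72 ± 0.21, and the list's median was -0.18. The Slc12a5 call was lost under 8 of 29 alternatives (adjusted p from 0.00782 to 0.149), among them 5 fits without 1 tumour, slide as a block (0.59) and the mean over kept probes (0.26). Of the HCN channel genes, whose cation current opposes the potassium currents, 2 were tested and 0 called.

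**Figure D5:**
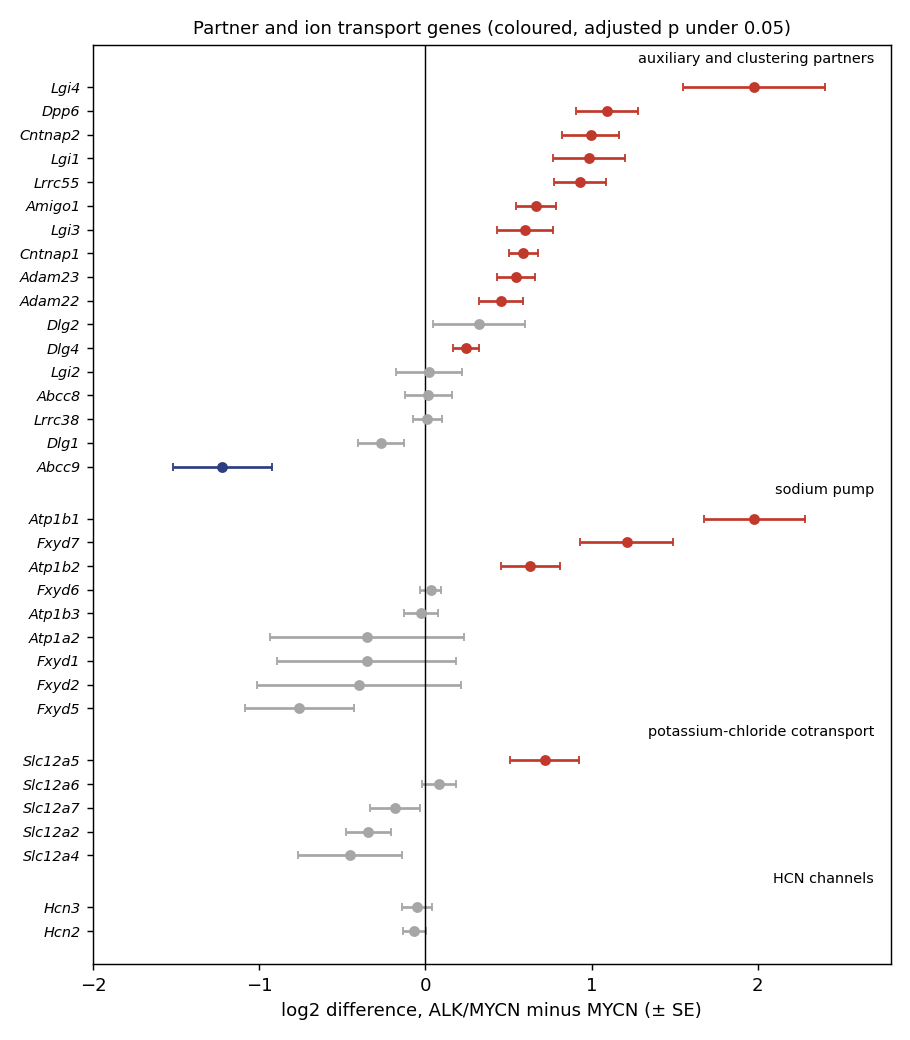
Log2 difference, ALK/MYCN minus MYCN, with its SE for tested partner and ion transport genes by list (n = 5 tumours per group; red, called higher; blue, called lower; grey, not called). In the partner list 11 of 17 genes are red (14.3% of all genes tested were called higher), with Lgi4 at 1.98 and Abcc9 the one blue gene at -1.22.

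Many of the higher genes were dim in the reference channel. Of the 14 genes called higher, 10 were above background in the reference RNA on no array, against 1 of the 7 called lower and 11 of the 43 not called. The same count was not made over all genes tested, so it cannot be called particular to these genes. From the tumour channel alone, quantile normalised between arrays, all 14 higher genes were still called, Kcnd3 at 2.40 and Kcnma1 at 2.27, and Kcnj4 was not. Plain subtraction of the local background, which leaves dim spots without a value, called 6 higher genes of 61 tested. With the scanner's processed signals the difference was larger for 13 of the 14 higher genes, by over 1.5 times for 9 of them, with Kcnc4 at 2.05, Kcnmb2 at 2.18 and Kcnip4 at 2.34, and was smaller for Kcnk10. The promoters of 70 of the 95 genes could be matched in RefSeq (GRCm38.p6, from 250 bases before to 50 after the start), and 2 motifs chosen with the earlier results known were searched on both strands. The E-box CACGTG was in 0 of 12 promoters of higher genes and 7 of all 95 promoters of these genes, some of which have several starts (7.37%), against 7.15% of all promoters. The ETS motif CCGGAAGT was in 0 of the 95 promoters, against 3.89% of all promoters.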

How the data were processed

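Each array paired 1 tumour RNA (Cy3) with the common reference (Cy5), in 1 dye orientation without swaps. Per the file headers, the authors deposited spot intensities from Agilent Feature Extraction 10.7.3.1, with probe positions on mm9, and a table of log2 ratios. That table was, to within 5.01e-04, the log2 ratio of the scanner's processed signals, Cy3 over Cy5. From the deposited mean intensities, the median local background was corrected by normexp (offset 50) and ratios were normalised by loess within each array. Flagged spots (177 to 345 per array) were set to missing, no spot was saturated, and spots of a probe were averaged. The filter left 30846 of 55681 probes and 22208 genes; names came from the array, and all 95 members matched RefSeq symbols (92 by accession, 3 by symbol).

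Groups were compared with limma 3.58.1 in R 4.3.3 (lmFit, eBayes, two-sided, no covariate), and the steps were tested on simulated data. A fold bound compares Cy3 values scaled by Aquantile after loess with the lowest signal well above background, and is open to dye bias. Slides were read from the files. Members, lists and tests were chosen with earlier results of these data known, and the kidney list, the printed sequences and the motifs after values were seen. Named are all called members, the genes of the M, ERG, BK, SK and IK channels, Kcnq1ot1, called partners, members above background in 1 group alone, and members with probes called in opposite directions, of which there were 0. Some genes under this rule are not reported here. Other genes were chosen after their values were seen or complete a family. Replicate numbers did not pair the tumours: deviations of same-numbered tumours correlated at 0.339 for number 1 and between -0.0908 and -0.0204 for the other numbers. Alternatives changed the background correction, normalisation, filter, probe, variance model, blocks and tumours.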

Additional observations from a re-analysis of the deposited data

Results flagged for a closer look

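In 6 of the 128 groups of 5 tumours examined (64 genes in each genotype), 1 tumour lay so far from the others that its gap to the nearest exceeded Dixon's critical value of 0.71 of the group's range; chance gives about 1 in 20 groups. The axonal Kv1 gene Kcna2 was at 1.49 in ALK/MYCN 5 and between 0.70 and 0.92 in the other ALK/MYCN tumours. The related Kcna6, on the probe used, was at 0.59 in ALK/MYCN 3 and between 0.03 and 0.10 in the others. The two-pore gene Kcnk5 was also at 0.59 in ALK/MYCN 3, against -0.78 to -0.64 in the others; this tumour had the high adrenal cortex markers, and their part in the value was not tested. The intermediate-conductance channel gene Kcnn4 was at -2.11 in ALK/MYCN 5 and between -2.83 and -2.72 in the others. Among MYCN tumours, the imprinted transcript Kcnq1ot1 was at -0.03 in MYCN 2, against 0.97 to 1.15 in the others. The inward rectifier gene Kcnj16 was at 3.66 in MYCN 5, against 0.03 to 0.80 in the others. This tumour had the high kidney tubule markers, and their part in the value was not tested.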

How the results depend on the processing

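Of the 21 called genes, 7 kept their call under every one of the 29 alternatives that gave them a value: Kcnd3, Kcnma1, Kcnk10, Kcnmb2, Kcnmb4 and Kcnc4, higher, and Kcnk6, lower. Leaving out each tumour in turn gave 12 to 15 higher and 5 to 8 lower genes and medians of 0.01 to 0.13, and 16 of the 21 kept their call in all of these fits. Over all genes, 10.6% to 13.3% were called higher and 8.0% to 11.7% lower in these fits, against 18.8% to 23.4% and 7.81% to 12.5% of the potassium channel genes. Higher calls numbered 6 with plain background subtraction (9.84%, against 2368 of all 22191 genes), 7 of 45 with probes above background on all arrays (15.6%, against 15.4%), 2 of 32 with probes above background in both channels (6.25%, against 14.6%) and 28 with spike-in centring (43.8%, against 40.1%); in the reported fit they were 21.9%, against 14.3%. Lower calls numbered 3 with scanner-processed signals (4.69%, against 9.24% of all genes), with the deposited value table (4.69%, against 9.25%) and with the filter on both channels (9.38%, against 13.6%). They numbered 4 with spike-in centring and with slide as a block (6.25% in both, against 3.77% and 8.48% of all genes). The stricter filters test fewer genes, and the cause of the other changes was not tested. Median centring gave a median of 0.19, with 4457 higher and 1350 lower calls over all genes, and spike-in centring a median of 0.33, with 8897 and 837, against 3173 and 2727 as reported. Cntnap2 reversed, at -0.43, with plain background subtraction. With replicate number as a block, 11 higher (17.2%, against 11.4% of all genes) and 6 lower genes (9.38%, against 9.45%) were called. The numbers do not pair the tumours, and number 1 was the single pair in which a tumour correlated best with its own number. The size of the Kcnq3 difference changed with the processing, and the cause was not tested. It was 2.20 with plain subtraction (not called, limma adjusted p = 0.0594) and 2.34 with scanner-processed signals, against 0.64 as reported.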
